A study of Oryza sativa with 7 samples.

Results

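The histone genes described here are the 41 genes, of 26168 listed in any of the 4 deposited tables, whose description contains the words core histone or histone H1. Of these, 38 are core histone genes and 3 are histone H1 genes, and 40 of the 41 were listed in all 4 tables. The descriptions of the core genes name H2A, H2B, H3 and H4 together in the same phrase. The IDs were looked up by name in RefSeq's rice annotation, where 0 of the 41 matched. No match by position was made, so this does not show that the genes are absent there. For these reasons H2A, H2B, H3 and H4 genes could not be described apart among the core genes. The core genes were instead kept in the forms in which they are described, 29 as core histone domain containing protein and 9 as core histone, putative. Another 10 genes are described as histone H3 without the word core, lie outside this choice, and are given beside it as the nearest set with a named type.

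Messenger RNA was measured by RNA-seq in 7 groups of rice, all in the japonica cultivar Nipponbare. Unelongated culms, the short stem bases of seedlings, came from 20-day-old plants of the wild type, of mir156abckl (5 MIR156 genes mutated) and of mir156defghi (6 mutated). Embryos of fresh wet seeds, taken just after seed filling, and seedling shoots of 2-week-old plants came from the wild type and from mir156abcdfghikl (10 mutated). The mutations were made with CRISPR/Cas9, and each group was sampled in 3 biological repeats. For each mutant in each tissue 1 line code is labelled. The codes of mir156abcdfghikl differ, C403 in embryos and D216 in shoots, so that line and tissue cannot be told apart between them. The deposited tables hold 1 FPKM value (fragments scaled to exon length and to the number of mapped reads) per group over its repeats, so no SD or depth per library is known and no test was computed from them. The p-values of the authors' own comparisons, listed in the same tables, were not used. Each mutant was compared with the wild type of its own tissue, to ask which transcripts differed once MIR156 genes were mutated. The paper reports severely retarded growth of mir156abcdfghikl seedlings, so shoots of the same age came from plants of unlike size. The part of this growth difference in the shoot results was not tested. Genes are called higher when the mutant value was 2 or more times that of the wild type and lower when it was 0.5 times or less, provided that either value reached 1 FPKM.

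Core histones H2A, H2B, H3 and H4 form the protein spool around which DNA is wrapped in the nucleosome, and the linker histone H1 binds the DNA between nucleosomes. Most core histones are made while DNA is copied in S phase, when new chromatin must be packed, and their transcripts are therefore abundant in dividing tissues such as meristems and young leaf bases. Other forms, the replacement variants, are made throughout the cell cycle. The histone fold is also found in proteins that are not parts of the nucleosome, among them subunits of NF-Y transcription factors. Neither form of description of the core genes, domain containing or putative, tells these apart.

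The transcripts of core histone genes took a far larger share of the transcriptome in mir156abcdfghikl shoots than in wild-type shoots, whereas those of histone H1 did not. The core genes, 37 of them listed in the shoot table, held 0.280% of the summed FPKM in wild-type shoots and 1.57% in the mutant. Their summed FPKM was 2281 in the former and 9489 in the latter, a ratio of 4.16. In culms the core genes held 0.303% in the wild type, 0.449% in mir156abckl and 0.285% in mir156defghi. In embryos the shares were 0.303% in the wild type and 0.348% in mir156abcdfghikl. The H1 genes held 0.135% in wild-type and 0.138% in mutant shoots. Thus the summed core FPKM was 2.08 times the summed H1 FPKM in wild-type shoots and 11.4 times in mutant shoots, against 2.84 and 3.79 times in wild-type and mir156abckl culms and 1.38 and 1.67 times in wild-type and mutant embryos.

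**Figure D1:**
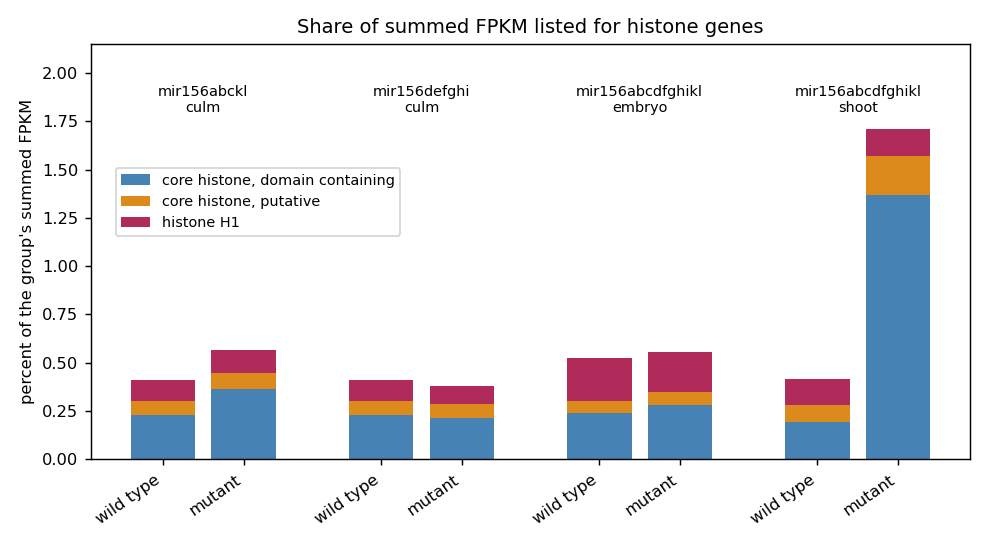
Stacked bars give the percent of each group's summed FPKM listed for the 29 core genes described as domain containing, the 9 described as putative and the 3 H1 genes, in the wild type and the mutant of each comparison. The mutant shoot bar reaches 1.71%, and the other 7 bars lie between 0.382% and 0.568%.

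In mir156abcdfghikl shoots, 28 of the 39 histone genes with at least 1 FPKM were at least 2-fold higher than in the wild type and 1 was at least 2-fold lower, where 26.2% of all genes of that table were higher and 23.1% lower. Among the core genes alone, 27 of 36 were higher and 1 lower, with a median log2 ratio of 2.44, against 0.14 over all genes. Of the core genes, 6 were at least 16-fold higher, which 4.68% of all genes were. The genes described as domain containing had a median of 3.11 with 24 of 27 higher, and those described as putative a median of 0.53 with 3 of 9 higher.

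The 6 core genes past 16-fold in shoots were all described as domain containing. LOC_Os10g28230 (chromosome 10, 14678068 to 14679443, TIGR release 7) had 5.74 FPKM in wild-type and 161 in mutant shoots, a log2 ratio of 4.81. LOC_Os05g02300 (chromosome 5, 738203 to 739079) had 19.3 and 510 FPKM (4.72). LOC_Os02g45940 (chromosome 2, 27993897 to 27994741) had 17.8 and 417 FPKM (4.55). In the wild type these 3 genes were below the median core level of 24.6 FPKM. In the mutant the first was itself the median core gene, at 161 FPKM, while the others lay above it. LOC_Os04g49420 (chromosome 4, 29485141 to 29489558) had low values, 3.33 FPKM in wild-type and 74.4 in mutant shoots (4.48), and its locus overlaps that of another listed gene. LOC_Os03g17100 (chromosome 3, 9498899 to 9499826) had 69.9 and 1469 FPKM (4.39), the highest level of any of the 41 genes in that group. LOC_Os08g38300 (chromosome 8, 24261319 to 24262356) had 27.8 and 573 FPKM (4.36).

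A further 21 core genes were between 2-fold and 16-fold higher in mutant shoots, with wild-type levels from 1.53 to 215 FPKM and mutant levels from 22.8 to 713 FPKM. The upper part of this range, with log2 ratios from 3.07 to 3.90, held LOC_Os09g26340, LOC_Os03g02780, LOC_Os05g38740, LOC_Os05g49860, LOC_Os01g31800, LOC_Os12g34510, LOC_Os01g05630, LOC_Os03g06670 and LOC_Os08g33100. LOC_Os05g49860, for example, had 39.9 and 495 FPKM, and LOC_Os03g02780 had 28.1 and 409 FPKM. Log2 ratios from 2.02 to 2.62 were those of LOC_Os07g36500, LOC_Os05g39050, LOC_Os01g05900, LOC_Os01g61920, LOC_Os07g36130, LOC_Os12g25120 and LOC_Os01g06010. LOC_Os01g61920 had 109 and 578 FPKM. The smallest of the 21, from 1.01 to 1.99, were those of LOC_Os01g05610, LOC_Os01g62230, LOC_Os09g38020, LOC_Os03g53190 and LOC_Os10g39410. LOC_Os09g38020, with the highest core FPKM in the wild-type culm and embryo, had 215 FPKM in wild-type and 713 in mutant shoots (1.73), and LOC_Os10g39410 lay at the limit with 193 and 390 FPKM.

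**Figure D2:**
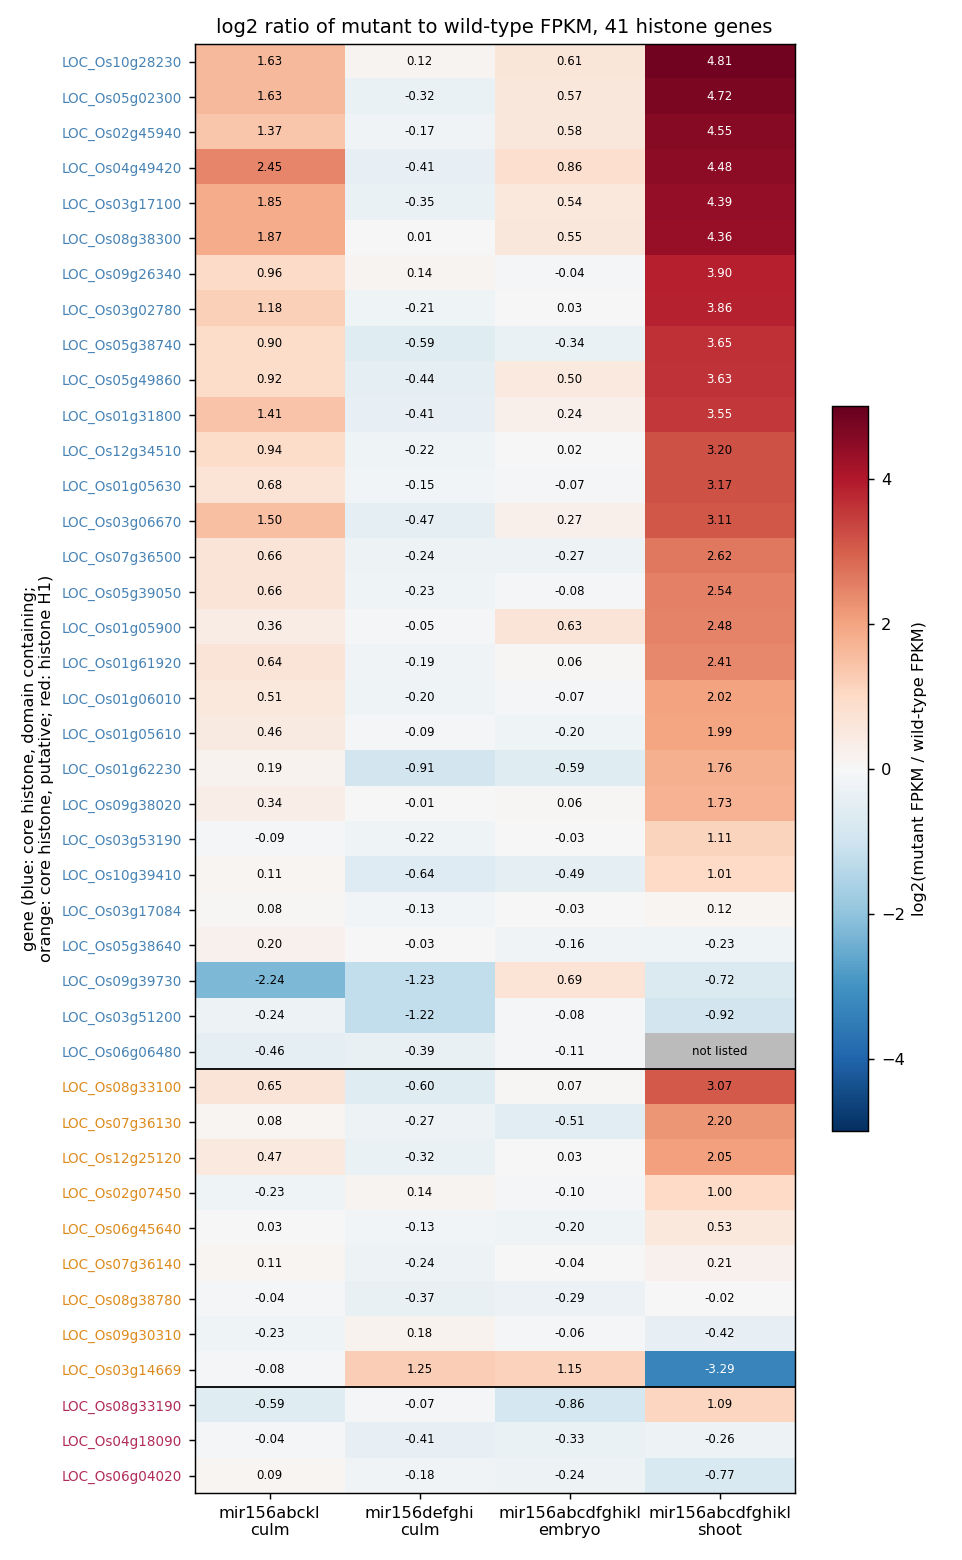
Each row is a histone gene and each column a comparison, and colour and number give log2 of the mutant over the wild-type FPKM. The shoot column holds the 27 core genes past 2-fold higher, from 1.01 to 4.81, while the mir156defghi culm and embryo columns hold 1 such gene each.

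Not all genes described as core histone were higher, and whether each of them is part of the nucleosome is not known. Of the 37 listed in shoots, 9 differed by less than 2-fold, and these included abundant ones. LOC_Os07g36140 (chromosome 7, 21592647 to 21593290) had 415 FPKM in wild-type and 481 in mutant shoots, and LOC_Os05g38640 (chromosome 5, 22656824 to 22658034) 322 and 274 FPKM. LOC_Os03g17084 (chromosome 3, 9492889 to 9497494) had 28.5 and 30.9 FPKM. These 3 genes had the smallest differences over all 4 comparisons among core genes with at least 10 FPKM in every group, and their largest absolute log2 ratios were 0.24, 0.23 and 0.13. LOC_Os08g38780 (24.6 and 24.3 FPKM), LOC_Os09g30310 (20.6 and 15.5), LOC_Os06g45640 (8.19 and 11.8), LOC_Os03g51200 (10.7 and 5.66) and LOC_Os09g39730 (0.503 and 0.305, below 1 FPKM in both groups) also lay within 2-fold, and LOC_Os02g07450 (15.0 and 30.0) just under the limit. LOC_Os06g06480, listed at 1.52 FPKM in wild-type culms and 0.629 in wild-type embryos, was not listed in the shoot table. The 5 most abundant core genes of wild-type shoots held 56.0% of the summed core FPKM there. The 5 most abundant of mutant shoots, a different set, held 40.5%. The number of core genes with at least 100 FPKM was 7 in wild-type and 25 in mutant shoots.

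**Figure D3:**
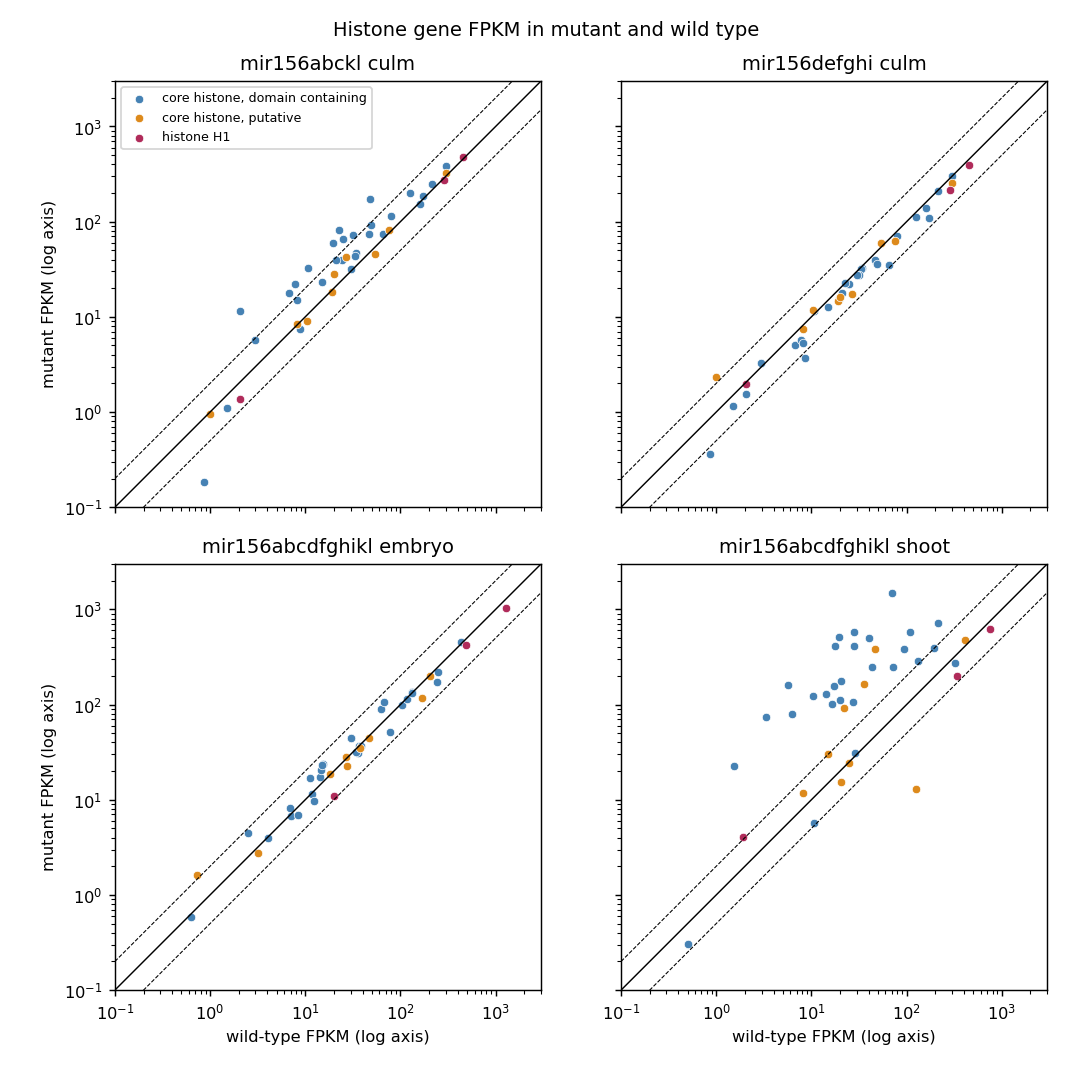
Mutant FPKM is plotted against wild-type FPKM on log axes for each histone gene in the 4 comparisons, with the solid line at equal levels and dashed lines at 2-fold. In shoots most core genes stand above the upper dashed line at every wild-type level up to 215 FPKM, and the abundant H1 genes lie between the dashed lines.

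LOC_Os03g14669 (chromosome 3, 7976844 to 7979384), described as core histone, putative, was the exception in the other direction. That description does not tell whether the gene encodes a histone of the nucleosome. It had 127 FPKM in wild-type shoots and 13.0 in mutant shoots, a log2 ratio of -3.29. It was close to 1 FPKM elsewhere, with 0.995 in wild-type culms, 0.942 in mir156abckl and 0.722 in wild-type embryos, and stood at 2.35 FPKM in mir156defghi culms and 1.60 in mutant embryos. The last values are 2.37 and 2.22 times the wild type of the same table, at levels where adding 1 FPKM to both takes the ratio below 2. This gene was the 887th most abundant in wild-type shoots and ranked 21473 in wild-type culms and 19834 in wild-type embryos.

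In mir156abckl culms the core histone genes were also higher than in the wild type, by less. Of 39 histone genes with at least 1 FPKM, 9 were at least 2-fold higher and 0 lower, where 6.06% of all genes were higher and 7.09% lower. All 9 were core genes described as domain containing. The median log2 ratio of the core genes was 0.57, against -0.02 over all genes. Above 0 were 30 of 36 core genes, beside 10598 of 22243 over all genes. LOC_Os04g49420 had 2.09 FPKM in wild-type and 11.4 in mir156abckl culms (log2 ratio 2.45), LOC_Os08g38300 had 22.5 and 82.0 (1.87), and LOC_Os03g17100 had 47.8 and 172 (1.85). LOC_Os05g02300 had 19.4 and 59.9 FPKM, LOC_Os10g28230 10.6 and 32.7, and LOC_Os02g45940 25.2 and 65.2. The remaining 3 were LOC_Os03g06670 (7.89 and 22.4), LOC_Os01g31800 (6.76 and 17.9) and LOC_Os03g02780 (31.8 and 71.9). The 6 genes past 16-fold in shoots were thus all among the 9, and the other 3 of the 9 were between 8-fold and 16-fold higher in shoots.

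The order of the core genes by their ratio was nearly the same in mir156abckl culms and in mir156abcdfghikl shoots, which share neither a wild-type nor a mutant group. Across the 37 core genes listed in both, Spearman's rho between the log2 ratios was 0.94 and Pearson's r 0.82. No level filter was applied to these 37, so that LOC_Os09g39730, below 1 FPKM in culms and shoots, is among them. Across the 27 at least 2-fold higher in shoots rho was 0.92. For the 20364 genes that passed the level filter in both tables, rho was 0.52 and r 0.58, and for the 34 S-phase genes taken by description rho was 0.83 and r 0.87, so that a shared order was seen outside the histones too. These are descriptions across genes, which are not independent replicates, and reads of similar histone copies may be shared between them in both tables. The shoot ratio was not ordered by the wild-type level in culms (rho of -0.16) or by the length of the locus (-0.05). With the embryo ratio rho was 0.38, and with the mir156defghi culm ratio -0.06.

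**Figure D4:**
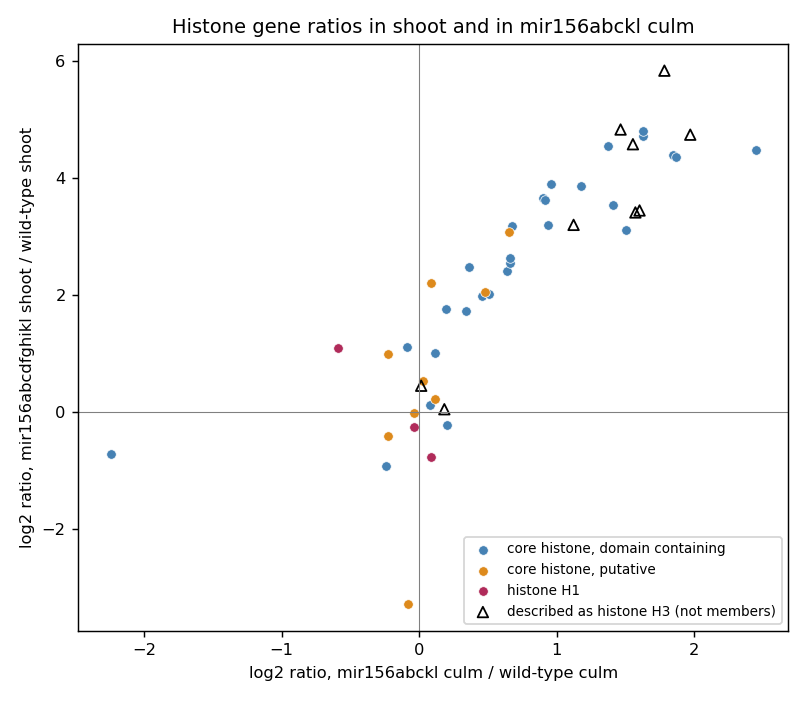
The log2 ratio in mir156abcdfghikl shoots is plotted against that in mir156abckl culms for each histone gene, with the genes described as histone H3 as open triangles. The core genes run from the origin to log2 ratios of 2.45 in culms and 4.81 in shoots, and LOC_Os09g39730 and LOC_Os03g14669 stand apart at the left and at the bottom.

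In mir156defghi culms the core genes were slightly lower than in the wild type. Of 40 histone genes, 1 was at least 2-fold higher (LOC_Os03g14669) and 1 lower, where 5.22% and 6.00% of all genes were. The lower one was LOC_Os03g51200 (chromosome 3, 29291507 to 29292235), with 8.66 FPKM in wild-type and 3.72 in mir156defghi culms, against 7.37 in mir156abckl. The median log2 ratio of the core genes was -0.22, against -0.02 over all genes. Below 0 were 31 of 37 core genes, beside 11703 of 22179 over all genes. LOC_Os01g62230 had 65.0 and 34.7 FPKM (log2 ratio -0.91), and LOC_Os10g39410 had 171 and 110. The 2 culm comparisons share their wild type, for which the mir156defghi table lists values a median of 0.994 times those of the other. Between the mutants, 33 of the 38 core genes had a lower ratio in mir156defghi than in mir156abckl. LOC_Os03g17100, for example, had 172 FPKM in mir156abckl and 37.4 in mir156defghi. The difference in log2 ratio ran from -2.86 (LOC_Os04g49420) to 1.33 (LOC_Os03g14669), with a median of -0.82. No level filter was applied to these 38, and LOC_Os03g14669 had only 0.942 FPKM in mir156abckl and 2.35 in mir156defghi. The same difference was not computed over all genes, so whether it is particular to histones is not known.

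In fresh seed embryos the core genes showed little difference between mir156abcdfghikl and the wild type. Of 40 histone genes, 1 was at least 2-fold higher (LOC_Os03g14669) and 0 lower, where 4.79% of all genes were higher and 2.96% lower. The median log2 ratio of the core genes was -0.03, with 18 of 37 above 0. Over all genes the median was 0.03, with 10627 of 19720 above 0. The 6 genes past 16-fold in shoots had log2 ratios from 0.54 to 0.86 in embryos, all above 0 and all under 2-fold. LOC_Os03g17100 had 61.8 and 90.0 FPKM and LOC_Os08g38300 had 30.2 and 44.3. On the lower side, LOC_Os01g62230 had 77.0 and 51.0 FPKM (-0.59) and LOC_Os10g39410 had 243 and 173. LOC_Os09g39730 (chromosome 9, 22790610 to 22792870), below 1 FPKM in culms and shoots of every genotype, had 66.5 FPKM in wild-type and 107 in mutant embryos (0.69). In culms it had 0.863 FPKM in the wild type, 0.182 in mir156abckl and 0.365 in mir156defghi, too low for a ratio to be read, and its locus overlaps another listed gene.

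The most abundant core genes were largely shared by the 3 wild types. LOC_Os09g38020, LOC_Os07g36140, LOC_Os05g38640, LOC_Os10g39410 and LOC_Os03g53190 were the 5 highest core genes in wild-type culms, at 302, 300, 217, 172 and 162 FPKM. The first 4 were also among the 5 highest in embryos, where LOC_Os07g36130 (167 FPKM) was the fifth, and all 5 were the highest in shoots. An exception was LOC_Os12g34510, which had 131 FPKM in wild-type embryos, where it was the 708th most abundant gene, against 20.8 in culms and 17.2 in shoots, where it ranked 6900 and 7549. Tables of different tissues were normalized separately, so that these levels are set side by side and the ranks are within each group.

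Histone H1 did not follow the core histones. LOC_Os06g04020 (chromosome 6, 1642213 to 1643800) had 342 FPKM in wild-type and 200 in mutant shoots, a log2 ratio of -0.77. LOC_Os04g18090 (chromosome 4, 9993500 to 9994514) had 751 and 626 FPKM in shoots and was the most abundant of all 41 genes in embryos, at 1284 FPKM in wild-type and 1021 in mutant ones. Both lay within 2-fold in all 4 comparisons and were lower than the wild type in all but 1 of them, the exception being LOC_Os06g04020 in mir156abckl culms (450 and 479 FPKM). The third gene, LOC_Os08g33190 (chromosome 8, 20654680 to 20657933), described as linker histone H1 and H5 family, was weak outside embryos. It had 1.90 FPKM in wild-type and 4.03 in mutant shoots (1.09), 20.1 and 11.0 in embryos (-0.86), 2.08 and 1.38 in mir156abckl culms, and 2.07 and 1.96 in the mir156defghi table. The median log2 ratio of the 3 H1 genes was -0.26 in shoots, -0.33 in embryos, -0.04 in mir156abckl and -0.18 in mir156defghi culms.

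The genes described as histone H3, not counted above, also held a set that was higher and an abundant pair that was not. In mir156abcdfghikl shoots 7 of 9 were at least 2-fold higher, where 26.2% of all genes were. LOC_Os05g36280 (chromosome 5, 21499418 to 21500179) had 12.4 and 708 FPKM (log2 ratio 5.84). The same 7 were the ones at least 2-fold higher in mir156abckl culms, from 1.12 to 1.97, where 6.06% of all genes were. The most abundant pair differed little. LOC_Os03g27310 had 759 and 784 FPKM in shoots, and LOC_Os06g04030 had 604 and 824. In mir156defghi culms and in embryos 0 of 9 and 0 of 10 passed 2-fold in either direction. Over all genes 5.22% were higher and 6.00% lower in mir156defghi culms, and 4.79% and 2.96% in embryos.

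Neighbouring histone genes had unlike ratios in some places and like ratios in others. LOC_Os03g17084 and LOC_Os03g17100, separated by 1404 bases, had shoot log2 ratios of 0.12 and 4.39. LOC_Os07g36130 and LOC_Os07g36140, 1995 bases apart, had ratios of 2.20 and 0.21. The H1 gene LOC_Os06g04020 lies 1612 bases from the H3 gene LOC_Os06g04030, with ratios of -0.77 and 0.45. On chromosome 1, LOC_Os01g05610 and LOC_Os01g05630 had ratios of 1.99 and 3.17, and LOC_Os01g05900 and LOC_Os01g06010 of 2.48 and 2.02. The locus of LOC_Os01g05900 spans 18546 bases and overlaps another listed gene.

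Genes of DNA replication, like the core histones, lay mostly above the wild type in mutant shoots and mir156abckl culms. In embryos the replication genes still did, while the core histone list as a whole did not. The S-phase genes were picked by description: genes named MCM, DNA polymerases alpha, delta and epsilon, clamp loaders and enzymes of deoxynucleotide synthesis. Of these 34 genes, 28 were at least 2-fold higher and 0 lower in mutant shoots, with a median log2 ratio of 2.25. Over all genes in these shoots 26.2% were higher and 23.1% lower. MCM3 (LOC_Os05g39850), a subunit of the replicative helicase, had 1.49 and 36.8 FPKM, and the large ribonucleotide reductase gene LOC_Os06g07210 had 5.01 and 27.7, both chosen as examples after their values were seen. The median of this list was 0.46 in mir156abckl culms, with 6 of 34 higher, 0.02 in mir156defghi culms and 0.45 in embryos, with 1 of 31 higher. Over all genes 6.06% were higher in mir156abckl culms and 4.79% in embryos, so that the embryo count was near that share. In embryos 29 of 31 S-phase genes lay above 0, beside 18 of 37 core histone genes and 10627 of 19720 over all genes. The genes described as histone H3 had a median of 0.34 there, with 6 of 10 above 0. The 6 core genes past 16-fold in shoots had log2 ratios from 0.54 to 0.86 in embryos. Histone chaperones, which hand histones to DNA, had a median of 0.56 in shoots with 1 of 6 higher, and enzymes that modify histones a median of 0.46 with 5 of 33 higher and 4 lower. These chaperone and modifier counts lay below the shares over all genes, 26.2% higher and 23.1% lower. In the same shoots 16 of 17 chlorophyll A-B binding protein genes, markers of green tissue, were at least 2-fold lower, and their share of the summed FPKM was 6.15% against 1.39%. In embryos 14 of 15 of them were at least 2-fold higher in the mutant, at shares of 0.012% and 0.037%. In culms 17 of 17 lay above 0 in mir156abckl and 16 of 17 in mir156defghi, beside 10598 of 22243 and 10476 of 22179 over all genes. Oleosin and late embryogenesis abundant genes, chosen as markers of seed, held 6.73% of the summed FPKM in wild-type and 6.44% in mutant embryos. There 23 of 27 lay below 0, beside 9093 of 19720 over all genes. Of the 27, 3 were at least 2-fold lower, which 2.96% of all genes were. In shoots 5 of 10 were lower and 3 higher, and their summed FPKM in the mutant was 0.107 times that of the wild type. Of the wild-type shoot sum of 1076 FPKM, LOC_Os01g21250 held 913 (14.5 in the mutant) and LOC_Os05g50710 held 110 (11.5). In wild-type embryos they had 26.7 and 61.7 FPKM, so that the shoot sum rests on genes not confined to seed. More dividing cells and more histone RNA per cell cannot be told apart in bulk tissue, and the part of tissue make-up in these results was not tested.

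**Figure D5:**
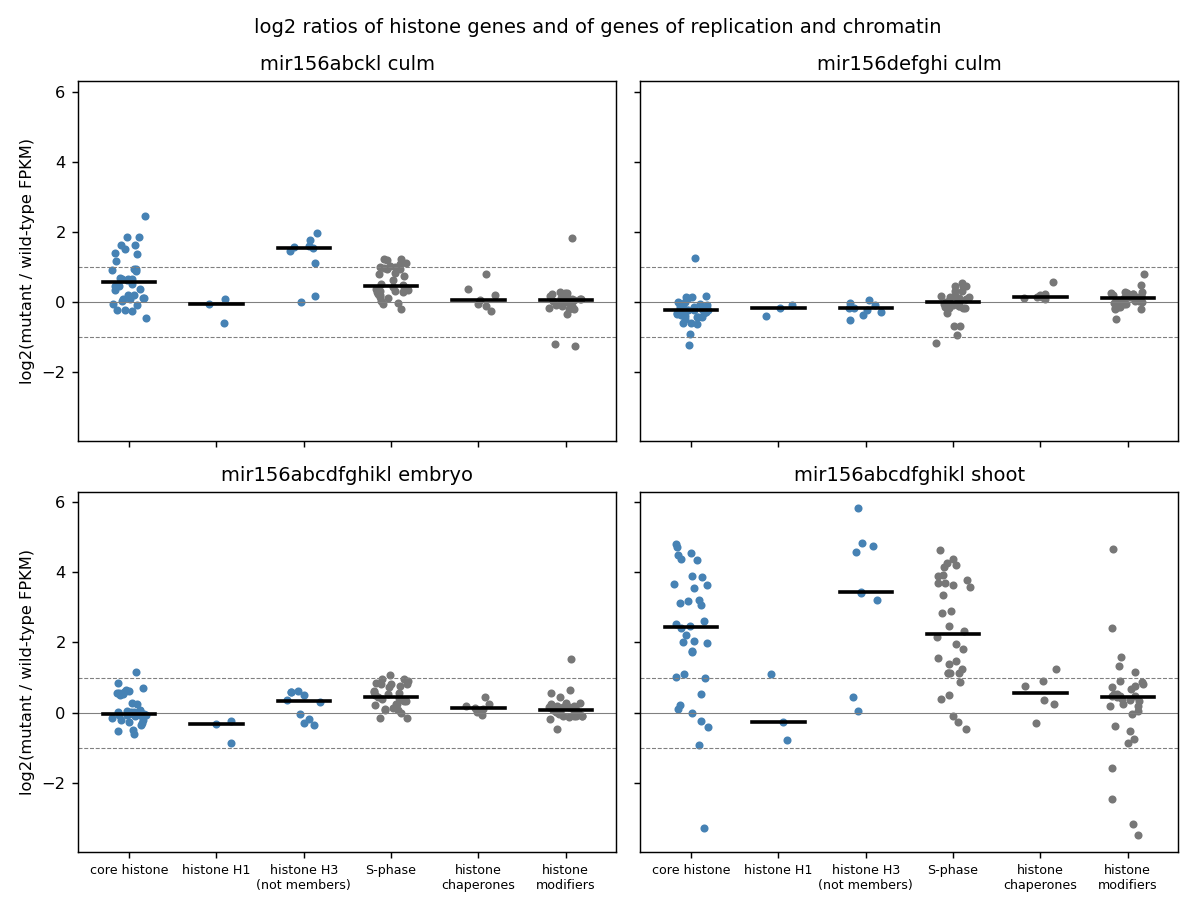
Points give the log2 ratio of each gene that reached 1 FPKM, bars the median of each list, and dashed lines 2-fold, for core histone, H1, histone H3, S-phase, chaperone and modifier genes. In shoots the core histone and S-phase medians are 2.44 and 2.25, against 0.56 for chaperones and 0.46 for modifiers.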

How the data were processed

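RNA-seq libraries of 7 groups were made by the authors from poly(A) RNA with a stranded kit, with 3 biological repeats per group. Reads were filtered for adapters and low quality and aligned to TIGR release 7 with Hisat2 under default parameters (version not given in the sources used here). FPKM values were computed by the authors with Cufflinks (2.2.1 in the submitters' processing notes) and deposited as 1 value per group, scaled within each comparison. Whether read strand and reads of near-identical histone copies were resolved is not given in the sources used here, so values of similar copies and of the 4 genes with overlapping loci are uncertain. The tables also hold the authors' fold changes, p-values and q-values from cuffdiff, which were not used. The precision of an FPKM is unknown, since no counts or repeats were used.

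Computation used Python 3.11.15 with numpy 2.4.6, pandas 2.3.3 and scipy 1.17.1, and plots with matplotlib 3.10.9. Nothing was added to FPKM, and genes listed at 0 got no ratio. The members and lists were chosen with earlier results of these data known. Genes were named if H1, if at least 2-fold different anywhere, if among the 5 members with the highest FPKM of a wild type or if among the 3 steadiest core genes with at least 10 FPKM in every group; other members are named to account for all. The 16-fold class and the rank correlations were added after the values were seen. The counting step was tested on simulated data. Alternatives were 1 FPKM added, no filter, centring, the H3 genes added and a 1.5-fold limit.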

Additional observations from a re-analysis of the deposited data

Results flagged for a closer look

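The following values had opposite signs in 2 comparisons of the same tissue or the same genotype, without a test of the difference. For core histone genes the median log2 ratio was 0.57 in mir156abckl culms and -0.22 in mir156defghi culms, against a shared wild type. In mir156abcdfghikl it was -0.027 in embryos and 2.44 in shoots, but the embryo value is near 0, with 18 of 37 genes above 0, and was 0.02 with the H3 genes added, so that it has no clear direction. LOC_Os03g14669 had a log2 ratio of 1.15 in embryos, from 0.722 to 1.60 FPKM, and of -3.29 in shoots. Mutant embryos and shoots carry different line codes, so that tissue and line cannot be told apart here.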

How the results depend on the processing

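The count of higher genes in shoots, 28, ranged from 26 to 35 over the 5 alternatives, the last with the H3 genes added. The core medians of both culm comparisons and of shoots kept their sign in each of the 4 alternatives run on them, and that of embryos was 0.02 with the H3 genes added. No paired analysis was possible because each group has 1 value. With a 1.5-fold limit, 18 genes were higher and 1 lower in mir156abckl culms, 5 lower in mir156defghi culms, 5 higher and 2 lower in embryos, and 3 lower in shoots. The shares of all genes past that limit were 11.7% and 12.9% (higher and lower) in mir156abckl culms, 10.8% and 12.8% in mir156defghi culms, 10.4% and 7.20% in embryos and 36.2% and 30.7% in shoots, so that 5 of 40 in mir156defghi culms and in embryos were near the background. With 1 FPKM added, 0 were higher in mir156defghi culms and 0 in embryos, since LOC_Os03g14669 drops out. Without the filter on low values, 1 gene was lower in mir156abckl and 2 in mir156defghi culms, LOC_Os09g39730 being added. Ratios centred on the median of genes that reached 1 FPKM in wild type and mutant alike (0.09 in shoots) gave 2 lower genes in shoots. With the H3 genes added, 16 were higher in mir156abckl culms and the shoot median was 2.62. Low FPKM limit LOC_Os03g14669 outside shoots, LOC_Os09g39730 outside embryos and LOC_Os06g06480 throughout.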
